A study of Mus musculus with 9 samples.

Results

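The 300 circRNA probes with the highest signal in normal (N) mouse liver are described here, out of 14236 circRNA probes on the array. They were selected on the N arrays. The members are the probes with the highest mean normalized log2 signal over N1, N2 and N3 among those flagged as well above background on all 3 of them. They made up 2.11% of the circRNA probes. No brighter probe was left out by the background flag, and 11892 probes carried that flag on all 3 N arrays. The mean N signal of the members ran from 9.97 to 17.83 on the log2 scale, with a median of 10.90, against a median of 4.76 over all circRNA probes. At the limit the last members in were ASCRP4007127, ASCRP4005419 and ASCRP4001082, each at 9.97. The first probes left out were ASCRP4007781, ASCRP4007472 and ASCRP4002677, each at 9.96, so the limit cuts a continuous range of signal.

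Liver circRNA expression was profiled on 9 arrays, each from a male C57BL/6 mouse supplied at 8 weeks of age. In N mice, called control in the labels, the abdomen was opened and the blood supply of the liver was left intact. The I/R group had part of the liver made ischemic for 1 h and then reperfused for 4 h. In IPO mice (ischemic postconditioning) the ischemic liver was opened to blood flow stepwise, as 3 short interruptions of 5 s, spaced by 5 s of flow, came before lasting reperfusion. Each group had 3 mice, picked at random from the animals of that group, and whole liver tissue was used. Total RNA of every sample was digested with RNase R to remove linear RNA and was then random-primed and labelled with Cy3. The deposited files name probes by number only. The host genes, the probe sequences and the liver cell markers of these samples were therefore not analysed here, and the members are given by probe number.

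CircRNAs are closed RNA loops, formed when a downstream splice donor is joined to an upstream acceptor of the same transcript. They have no free ends, which makes them resistant to exonucleases such as RNase R and often long-lived in cells that divide slowly, such as hepatocytes. Many arise from exons of protein-coding genes, and some are present at a higher level than the linear RNA of their host. The brightness of a probe depends on its labelling and hybridization as well as on the amount of RNA, so the order of probes below is an order of signal and not of molecule numbers.

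Arrays IR1 and IR2 stood apart from the others. On IR1 and IR2, 8088 and 5489 circRNA probes were well above background, against 12097 to 13207 on the other 7 arrays. The median deposited intensity of the members was 860 on IR1 and 776 on IR2, between 1619 and 2539 on the N and IPO arrays, and 5293 on IR3. All 300 members were well above background on 7 arrays, 294 were on IR1 and 291 on IR2. IR1, IR2 and IPO3 were each alone in their scan, and the other 6 arrays, of all 3 groups, shared scan 1. Values within scan 1 and without single arrays are given beside those results below that they change most.

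The first comparison asked how much of the circRNA signal the brightest probes of normal liver held in each group. The 300 members took most of it on every array. Their share of the deposited circRNA intensity was 69.0% on N1, 70.0% on N2 and 63.4% on N3. In I/R the share was 68.0%, 70.9% and 59.7% on IR1, IR2 and IR3, and in IPO it was 65.0%, 64.1% and 65.6%. The N arrays hold the values that chose the members, and they averaged 67.5% ± 3.59 (SD, n = 3). The I/R mean was 66.2% ± 5.82 and the IPO mean 64.9% ± 0.730 (SD, n = 3 each). The I/R arrays spanned the values of all IPO arrays, and the difference of -1.27 percentage points between IPO and I/R was within the spread (two-sided exact permutation test, p = 0.8). The sign of this difference turned with the I/R arrays used and with the processing. It was 4.81 points within scan 1, where IR3 is the only I/R array, and 5.67 points after normexp background correction.

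The share was also measured on N arrays that took no part in the choice. When the 300 probes were chosen on the other N arrays, they held 68.0% of the signal on N1, 69.4% on N2 and 62.2% on N3. The mean of these held-out values was 66.5% ± 3.84 (SD, n = 3). Of each such list, 245 probes were among the 300 brightest on N1, 250 on N2 and 227 on N3. The same lists kept 173 to 216 probes among the 300 brightest of an I/R array and 229 to 266 of an IPO array. The I/R arrays thus lay below every held-out N array and every IPO array by this count.

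The signal was concentrated in few probes. On N1, N2 and N3, 50% of the circRNA signal was held by 41, 32 and 60 probes. The corresponding numbers were 42, 30 and 87 on the I/R arrays and 61, 64 and 51 on the IPO arrays. The 10 brightest members of normal liver held 33.2%, 37.9% and 34.3% of the signal on the N arrays, 28.9%, 37.9% and 23.1% on the I/R arrays, and 33.0%, 32.2% and 34.4% on the IPO arrays. IR2 was level with N2, the highest N array, and IR3 was the lowest of all (IPO against I/R, two-sided exact permutation test, p = 0.6). The 200 members below the first 100 together held only 9.76% ± 0.518 in N, 10.9% ± 1.55 in I/R and 10.3% ± 0.558 in IPO (SD, n = 3 each).

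ASCRP4006710 was the brightest circRNA probe of normal liver. It alone gave 8.89%, 9.05% and 6.72% of the circRNA signal on N1, N2 and N3. Its share was 4.73%, 5.45% and 5.03% on the I/R arrays and 7.40%, 6.34% and 7.43% on the IPO arrays. No I/R value reached an IPO value. The means were 5.07% ± 0.363 in I/R and 7.05% ± 0.621 in IPO (SD, n = 3 each), a difference of 1.99 percentage points with an exact permutation p of 0.1, which is the smallest that 3 arrays against 3 can give. Quantile normalization gives every array the same top value, so the normalized log2 signal of this probe was 17.83 on all N and IPO arrays and on IR3, and 17.26 on IR1 and IR2. On that scale the difference of 0.38 between IPO and I/R did not pass (SE 0.29, limma, adjusted p = 0.415).

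ASCRP4012684, the third in N, was the clearest change among the 10 brightest. Its share of the circRNA signal was 4.74%, 5.78% and 5.07% in N, 1.42%, 1.83% and 1.97% in I/R, and 5.54%, 5.02% and 4.83% in IPO. The I/R values lay apart from all others. Its normalized log2 signal was 15.97 ± 0.56 in I/R and 17.37 ± 0.10 in IPO (SD, n = 3 each), so it was higher in IPO by 1.40 (2.64-fold, SE 0.34, limma, adjusted p = 0.0350). Within scan 1, where IR3 is the only I/R array, the difference was 0.77, under 2-fold. The adjusted p lay between 0.00172 and 0.158 over 24 alternatives and missed 0.05 in 13, and the direction held in all of them.

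ASCRP4005609, the ninth in N, passed the fold and unadjusted p thresholds as well. Its log2 signal was 15.15, 15.26 and 14.77 in N, 13.60, 13.89 and 14.77 in I/R, and 15.45, 14.77 and 15.26 in IPO. IR3 and IPO2 met at 14.77, so the groups touched, and the difference of 1.07 did not pass after adjustment (SE 0.38, limma, adjusted p = 0.104). The difference was 0.19 under 75th percentile scaling and 0.59 under scaling by the total circRNA signal, and it met neither threshold under these scalings. It was 0.34 within scan 1, where IR3 is the only I/R array, and 1.36 without IR3, with a limma adjusted p of 0.00869. No other probe of the 10 passed in either direction. ASCRP4004008, the fourth in N, ranked first in I/R. Its share was 4.12%, 5.07% and 5.16% in N, 6.46%, 8.91% and 3.58% in I/R, and 4.48%, 4.22% and 4.05% in IPO. IR1 and IR2 were the highest and IR3 the lowest of the 9 arrays, and the IPO minus I/R difference of -0.60 in its log2 signal did not pass (SE 0.28, limma, adjusted p = 0.196).

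None of the other 6 of the brightest 10 was called. ASCRP4006342 averaged 17.43 in N, 17.51 in I/R and 17.31 in IPO. ASCRP4013042 averaged 16.56, 16.95 and 16.43 in the same order, and ASCRP4011502 averaged 16.36, 16.12 and 16.50. These values sit on the steep upper end of the signal, where normalized values are set by rank. ASCRP4007626 averaged 15.90, 16.43 and 15.90, ASCRP4007838 averaged 15.45, 15.53 and 15.39, and ASCRP4010888 averaged 14.93, 14.25 and 14.93. Their IPO minus I/R differences ran from -0.53 to 0.68, and none passed. After normexp correction ASCRP4013042 and ASCRP4007626 were lower in IPO at limma adjusted p values of 0.0114 and 0.0102, by less than 2-fold (-0.49 and -0.51), and ASCRP4007626 was so with the raw signal (adjusted p = 0.0457). ASCRP4004008 was likewise lower by 0.59 at limma adjusted p values of 0.0219 and 0.0465 in these settings. Outside the top 10 the steadiest member was ASCRP4006649, at rank 30 in N. Its log2 signal was 13.58, 13.66 and 13.31 in N, 13.15, 13.18 and 13.49 in I/R, and 13.66, 13.21 and 13.75 in IPO. Its groups overlapped, and its IPO minus I/R difference was 0.27 (SE 0.30), with a sign that turned under scaling by the 75th percentile (-0.62).

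The next comparison asked how far the list of the brightest circRNAs changed between groups. The list was kept in IPO more than in I/R. Of the 300 members, 261, 268 and 253 were among the 300 brightest probes of N1, N2 and N3, the arrays that chose them. The numbers were 203, 209 and 178 on the I/R arrays and 250, 248 and 255 on the IPO arrays. Every I/R array was below every IPO array. Taken by group means, 211 members (70.3%) were also among the 300 brightest of I/R and 268 (89.3%) among the 300 brightest of IPO. Since the 3 lists are of equal size, these shares hold for both lists of a pair.

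The change in I/R reached into the top of the order. Of the 10 brightest N probes 8 were in the I/R top 10, of the 30 brightest 21 were in its top 30, and of the 100 brightest 75 were in its top 100. The corresponding numbers in IPO were 9, 27 and 88. The 89 members that fell outside the I/R list had a median rank of 716 there, and 51 of them were still within the first 1000. The lowest of the 89 in I/R was ASCRP4011328, which was well above background on IR3 alone, so its place there has no exact rank. The 89 probes that took their places had a median rank of 438 in N, and none was beyond 1600. In IPO the 32 members outside the list had a median rank of 357.5, and 31 were within the first 1000.

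A smaller set of members was found at the top of all arrays. There were 118 members among the 300 brightest probes of every one of the 9 arrays, and 196 were in the lists of all 3 groups. Below the top 300 on all 3 I/R arrays were 64 members, against 15 on all 3 IPO arrays.

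IPO was then compared with I/R. The levels of these groups took no part in choosing the members, but the N arrays, which did, enter the fit through its estimate of the spread. Fitted on the I/R and IPO arrays alone, 77 members were higher (25.7%, with 10.9% of all probes) and 24 lower (8%, with 7.59%). The counts that follow are from the fit of all 3 groups. More members were higher than lower in IPO. With a limma p below 0.05 before adjustment and a difference of 2.0-fold or more, 83 members (27.7%) were higher in IPO, against a background of 12.4% of the 12813 circRNA probes tested. By the same thresholds 25 members (8.33%) were lower, against 8.94% of all probes. The share called higher was thus above that of all probes, and in this processing the share called lower was close to it. After normexp correction 8.67% of members were lower, with 1.32% of all probes, and with the raw signal 9%, with 2.38%. Other filters on dim probes put the share lower under the background. A stricter filter kept 5272 probes, those whose background flag was set on every array, and 290 members. Of these members 9.31% were lower, with 12.7% of the probes kept, and 26.2% were higher, with 8.73%. Without a filter 8.33% of members were lower, with 11.8% of all probes. All 300 members entered the main test, as the rule made certain. Bulk liver RNA was measured, so fewer cells of a type and less RNA per cell cannot be told apart.

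This split of calls depended on the scaling. When each array was instead scaled by its 75th percentile, 61 members (20.3%) were higher and 76 (25.3%) lower, with 12.1% and 10.3% of all probes. Under that scaling the median of the members moved from 0.33 to -0.33, whereas the median over all probes moved from -0.01 to -0.05. Under scaling by the total circRNA signal, added after the data were seen, 78 members (26%) were higher and 35 (11.7%) lower, and the median over all probes was shifted to 0.35. With that shift 20.6% of all probes were higher and 3.9% lower, so the members' share called higher was nearer to that of all probes and their share called lower was above it. Of the 83 members called higher, 61 were also called higher under 75th percentile scaling and 78 under scaling by the total. All 25 called lower were also called lower under both. None of these members changed sign under any of the alternatives that gave it a value.

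After adjustment over all probes tested, 53 members (17.7%) were higher in IPO at a limma adjusted p below 0.05, against 4.96% of all probes. Lower at that threshold were 16 members (5.33%), against 3.07%. These counts depended on the processing, the test and single arrays. The number lower was 40 under 75th percentile scaling (4.3% of all probes), 28 after normexp correction (3.96%) and 25 with the raw signal (4.13%). Under the stricter filter on dim probes it was 21 of 290 members (7.24%), below the 9.71% of the probes kept. Higher and lower were 42 and 3 in the fit on I/R and IPO alone, with 1.64% and 0.172% of all probes, and 35 and 5 with a replicate block, with 2.22% and 0.554%. They were 0 and 0, with 0% of all probes, when the spread of each probe was taken from its own values alone. By fold and unadjusted p that test called 22% of members higher and 7.67% lower, with 7.3% and 5.53% of all probes. Without IR3 they were 84 (28%) and 43 (14.3%), when 18.5% and 18.1% of all probes were called, so the background rose with them and the share lower was below it. Without IR2 they were 35 and 8, with 2.94% and 1.07% of all probes, and without IPO1 35 and 5, with 2.49% and 0.847%. Without IPO2 they were 27 and 1, with 1.35% and 0.204%, and without IPO3 26 and 2, with 1.42% and 0.268%. Leaving out N1 or N2 changed the normalization, the fit and the choice of members together. The number lower was then 6 or 9, with 1.16% or 1.3% of all probes. By overlap of values, 92 members (30.7%) had every IPO value above every I/R value, against 13.7% of all probes, and 40 (13.3%) had every IPO value below, against 14.1%.

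The median log2 signal of the members was 10.98, 11.03 and 10.98 on the N arrays, 10.76, 10.86 and 10.62 on the I/R arrays, and 10.996, 10.91 and 10.96 on the IPO arrays. All I/R arrays were lower than all others. IPO was above I/R by 0.21, with an exact permutation p of 0.1, but scaling by the 75th percentile turned this to -0.35, also with p = 0.1. A direction for the members as a whole therefore cannot be given apart from the scaling.

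The 83 members higher in IPO differed from I/R by a median of 2.71 on the log2 scale, or 6.53-fold, and by 1.04 to 6.14. Their median log2 signal was 8.07, 8.68 and 8.25 on the I/R arrays and 11.03, 10.88 and 11.01 on the IPO arrays. The N arrays, which chose the members, read 11.12, 11.24 and 10.67. Together these 83 probes held 3.81%, 3.92% and 4.94% of the circRNA signal on the I/R arrays, against 15.7%, 14.0% and 14.0% on the IPO arrays and 15.9%, 16.1% and 12.3% on the N arrays. They are a list picked by this comparison, so these sums are a description. Within scan 1, where IR3 stands against IPO1 and IPO2, all of which took part in picking the list, all 83 were higher in IPO and 78 were so by at least 2-fold. Without IR3 their median difference was 2.76. In the I/R group 66 of the 83 were outside the 300 brightest probes and 38 outside the first 1000.

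ASCRP4002727, at rank 14 in N, was the brightest member with a large difference. Its log2 signal was 14.93, 15.15 and 12.59 in N, 7.15, 7.36 and 10.19 in I/R, and 14.93, 13.71 and 14.10 in IPO. It was well above background on all 9 arrays, and the highest I/R value was below the lowest value of the other groups. IPO was higher than I/R by 6.01 (64.5-fold, SE 0.88, limma, adjusted p = 0.00644). The deposited intensities gave the same order, with 56.4, 59.1 and 3632 in I/R and 28208, 13856 and 18808 in IPO. The size of this difference varied with the I/R arrays used. It was 4.05 within scan 1, where IR3 is the only I/R array, 5.41 without IR1 and 6.98 without IR3.

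ASCRP4007285 had the smallest adjusted p of the 6 largest increases. Its log2 signal was 11.11, 11.46 and 10.90 in N, 5.09, 5.22 and 6.64 in I/R, and 11.11, 11.80 and 10.94 in IPO. All 3 I/R arrays were far below the rest, and IPO was higher by 5.63 (SE 0.45, limma, adjusted p = 0.000962). ASCRP4002374 followed the same pattern at 10.30, 10.58 and 9.90 in N, 3.68, 4.11 and 5.65 in I/R, and 10.34, 11.34 and 9.75 in IPO. Its difference was 5.996 (SE 0.56, limma, adjusted p = 0.00148). For both probes the N and IPO values overlapped and no I/R value came near them. Within scan 1 their differences were 4.74 and 5.09.

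The other 3 of the largest increases varied more within groups. ASCRP4012606 read 11.96, 11.96 and 8.09 in N, 1.91, 4.21 and 6.997 in I/R, and 11.37, 9.68 and 10.47 in IPO, a difference of 6.14 between IPO and I/R (SE 1.31, limma, adjusted p = 0.0235). ASCRP4011328 read 11.86, 11.58 and 7.10 in N, 2.37, 2.06 and 4.87 in I/R, and 9.94, 8.35 and 7.76 in IPO, a difference of 5.58 (SE 1.23, limma, adjusted p = 0.0263). ASCRP4004376 read 12.75, 12.93 and 8.34 in N, 3.59, 5.38 and 6.36 in I/R, and 11.47, 10.08 and 10.51 in IPO, a difference of 5.58 (SE 1.14, limma, adjusted p = 0.0202). In all of them N3 was the lowest N array and IR3 the highest I/R array. Within scan 1 their differences were 3.48, 4.17 and 4.34, with IR3 as the only I/R array. The adjusted p of ASCRP4012606 reached 0.175 over the alternatives and that of ASCRP4011328 0.154. For ASCRP4012606, ASCRP4011328 and ASCRP4004376 it missed 0.05 in 9, 11 and 10 of 23 alternatives. For ASCRP4002727, ASCRP4002374 and ASCRP4007285 it reached 0.121, 0.0905 and 0.0723, each above 0.05 in 1 alternative, the test without limma's pooled spread.

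The lowest of these values have no measured size. ASCRP4012606, ASCRP4002374 and ASCRP4011328 were well above background on 1 of 3 I/R arrays, and ASCRP4007285 and ASCRP4004376 on 2 of 3. In all 10 members were not well above background on IR1, IR2 or both, and all 10 were well above it on IR3. The lowest log2 signal of a probe well above background was 4.22 on IR1 and 5.27 on IR2, against 1.30 to 2.39 on the other arrays. The folds of these 10 members are therefore uncertain in size. After normexp correction the differences were 3.91 for ASCRP4012606, 4.06 for ASCRP4002374, 2.64 for ASCRP4011328, 4.64 for ASCRP4007285 and 4.05 for ASCRP4004376. Those of ASCRP4011328 and ASCRP4004376 did not pass there (limma, adjusted p = 0.154 and 0.0536). Against IR3 alone the signal was measured on both sides, and it was lower on IR3 than on every IPO array for each of the 5 named here.

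The 25 members lower in IPO formed a smaller and tighter list. Their median difference was -1.40 on the log2 scale, so I/R was 2.65-fold above IPO, and the differences ran from -2.47 to -1.02. Their median log2 signal was 12.18, 12.33 and 12.78 on the I/R arrays, 10.74, 10.76 and 10.70 on the IPO arrays, and 10.99, 10.82 and 10.92 on the N arrays. They held 6.81%, 6.10% and 5.82% of the circRNA signal in I/R, 1.92%, 1.73% and 1.72% in IPO, and 2.01%, 1.80% and 1.88% in N. All 25 were well above background on every array. These sums too are a description of a list picked by this comparison. Within scan 1, whose arrays took part in picking it, all 25 were lower in IPO, 21 of them by at least 2-fold.

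ASCRP4000209 showed the largest decrease. Its log2 signal was 9.79, 10.34 and 11.17 in N, 12.74, 12.39 and 11.40 in I/R, and 9.95, 9.31 and 9.87 in IPO. IR3 was close to N3, but all I/R values were above all IPO values, and IPO was lower by 2.47 (SE 0.46, limma, adjusted p = 0.0146), with I/R 5.54-fold above IPO. ASCRP4000662 read 10.68, 11.51 and 12.02 in N, 13.21, 13.28 and 12.24 in I/R, and 10.61, 10.38 and 10.92 in IPO. Its difference was -2.27 (SE 0.43, limma, adjusted p = 0.0149), and again IR3 was near N3.

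The brightest members that were lower in IPO were ASCRP4009097 and ASCRP4006634, at ranks 35 and 53 in N and ranks 11 and 12 in I/R. ASCRP4009097 read 13.12, 13.52 and 13.35 in N, 15.15, 14.93 and 14.10 in I/R, and 12.85, 12.88 and 12.96 in IPO. Its share of the circRNA signal was 1.35%, 0.961% and 0.567% in I/R and 0.218%, 0.227% and 0.245% in IPO, and the log2 difference was -1.83 (SE 0.34, limma, adjusted p = 0.0141). The N and IPO arrays were close together and all I/R arrays lay above them. ASCRP4006634 read 12.35, 12.78 and 12.71 in N, 14.77, 14.77 and 13.58 in I/R, and 12.18, 12.08 and 12.43 in IPO, a difference of -2.14 (SE 0.38, limma, adjusted p = 0.0125).

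ASCRP4001441 and ASCRP4011990 were lower in IPO with I/R arrays close to one another. ASCRP4001441 read 10.94, 10.20 and 10.34 in N, 12.39, 12.51 and 12.93 in I/R, and 10.74, 10.58 and 10.45 in IPO, a difference of -2.02 (SE 0.32, limma, adjusted p = 0.00829). ASCRP4011990 read 10.39, 9.94 and 10.13 in N, 11.95, 12.43 and 11.86 in I/R, and 10.53, 9.998 and 10.37 in IPO, a difference of -1.78 (SE 0.31, limma, adjusted p = 0.0120). For both the smallest I/R value was above every N and IPO value. The limit member ASCRP4007127 was lower in IPO as well, at 11.80, 11.82 and 10.95 in I/R and 10.24, 9.94 and 9.98 in IPO, a difference of -1.47 (SE 0.32, limma, adjusted p = 0.0258).

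Each of the 6 largest decreases kept its direction in all 24 alternatives, but each missed an adjusted p of 0.05 in at least 1, the test without limma's pooled spread, which gave the highest value for all 6. The highest adjusted p was 0.126 for ASCRP4000209, 0.113 for ASCRP4000662 and 0.132 for ASCRP4006634. It was 0.0692 for ASCRP4001441, 0.122 for ASCRP4009097 and 0.0927 for ASCRP4011990. Within scan 1 the differences were -1.75 for ASCRP4000209, -1.74 for ASCRP4000662, -1.30 for ASCRP4006634 and -1.30 for ASCRP4009097, each smaller than over all arrays. There IR3 was the only I/R array, so the differences are given without a test. For ASCRP4001441 and ASCRP4011990 they were -2.13 and -1.58. The number of alternatives that missed an adjusted p of 0.05 ran from 1 for ASCRP4001441 to 7 for ASCRP4000662.

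By rank in N, members called higher in IPO were found in every part of the list, and members called lower only below the first 30. Among the 30 brightest members 6 were higher in IPO and 0 lower at the fold and unadjusted p thresholds. These are 20% and 0%, with 12.4% and 8.94% of all probes. Among ranks 31 to 100 there were 13 higher (18.6%) and 9 lower (12.9%), and among the last 200 there were 64 higher (32%) and 16 lower (8%). The median IPO minus I/R difference was 0.26 over the first 30, 0.15 over ranks 31 to 100 and 0.45 over the last 200, against -0.01 over all probes tested. These medians are on the quantile-normalized scale and carry the same dependence on the scaling as above.

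The levels against N are a description only, because the N arrays chose the members and a probe chosen for a high value in N tends to read lower elsewhere. These comparisons also share arrays with the one above. In I/R 92 members (30.7%) had a mean at least 2-fold below N, where 16.1% of all probes did, and 29 (9.67%) a mean at least 2-fold above it, where 9.22% did. In IPO 2 members (0.667%) had a mean at least 2-fold below N, where 0.421% of all probes did, and 0 had one above, where 0.741% did. The median difference from N was -0.37 for the members in I/R, with 0.00 over all probes, and -0.02 in IPO, with -0.01 over all probes. The 2 members lower in IPO were ASCRP4011328, given above, and ASCRP4007684, whose log2 signal in IPO was 9.46, 4.81 and 9.92. ASCRP4007684 rests on the single array IPO2, and it is named after its values were seen.

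Members also differed within the N group. The SD over N1 to N3 had a median of 0.31 among members and 0.26 over all probes tested, and the corresponding medians were 0.69 and 0.76 in I/R and 0.33 and 0.31 in IPO. The largest N SDs were those of ASCRP4000335 at 2.68, ASCRP4011328 at 2.67, ASCRP4004376 at 2.60 and ASCRP4008046 at 2.60. ASCRP4000335 read 12.30, 11.74 and 7.39 in N, 4.98, 4.99 and 6.40 in I/R, and 10.81, 8.88 and 9.57 in IPO. ASCRP4008046 read 11.90, 11.82 and 7.37 in N, 5.15, 5.31 and 6.62 in I/R, and 11.01, 8.85 and 9.60 in IPO. In each of these 4 probes N3 was lower than N1 and N2 by more than 4 on the log2 scale.

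This pattern was shared by a group of members. An N SD above 1 was found for 36 members, a limit set after the values were seen, so no test is given for them. N3 was the lowest N array for 30 of them, and their median log2 signal was 11.97, 11.89 and 8.94 in N, 5.70, 5.98 and 7.74 in I/R, and 11.37, 10.13 and 10.43 in IPO. N3 thus stood between the other N arrays and the I/R arrays, and IR3 was the highest I/R array for 27 of the 30. IPO1 was the highest IPO array for 29. Together these 30 probes held 5.58%, 5.18% and 0.780% of the circRNA signal on N1, N2 and N3, 0.140%, 0.143% and 0.311% on the I/R arrays, and 3.90%, 1.82% and 2.08% on the IPO arrays. Of the 83 members called higher in IPO, 29 belonged to these 30.

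For the remaining 6 of the 36, N1 was the lowest N array. Their median log2 signal was 10.05, 11.39 and 12.35 in N, 9.07, 10.14 and 11.67 in I/R, and 10.94, 12.94 and 10.57 in IPO. IR3 and IPO2 were the highest arrays of their groups in all 6, and none was called between IPO and I/R at the fold and unadjusted p thresholds. Without the 36 variable members, 54 of the other 264 (20.5%) were called higher in IPO and 25 (9.47%) lower, with 12.4% and 8.94% of all probes.

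Across members, Pearson's correlation of log2 signals was 0.97 for N1 with N2, 0.71 for N1 with N3 and 0.73 for N2 with N3. It was 0.98, 0.78 and 0.85 for the I/R pairs and 0.86, 0.93 and 0.91 for the IPO pairs, in the order of replicates 1 with 2, 1 with 3 and 2 with 3. Over all probes tested, the N pairs were at 0.978, 0.950 and 0.946 in the same order. The I/R pairs were at 0.889, 0.740 and 0.765, and the IPO pairs at 0.960, 0.956 and 0.961. The lower values of the N3 pairs were thus seen over the 300 members and much less over all probes. The arrays share a normalization, and probes are not independent replicates, so the correlations are a description. The pairs with N3 or IR3 were the lowest of their groups.

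The members were not gathered in 1 place on the array. Their median row was 95 and their median column 40, against 96 and 41 for the other circRNA probes. Another member lay on an adjoining spot for 9% of members and for 14.5% of other probes. Within 5 probe numbers of a member there was another one in 19.3% of cases, against 18.9% for other probes. The median local background at the spots of the members was 16 to 18 on 7 arrays, 27 on IR1 and 33.5 on IR2. It equalled the median over all circRNA spots on N1, N2, IR1, IR2 and IPO3, and was above it by at most 1 unit on the other 4 arrays. No circRNA spot was saturated, so the top values were within the range of the scanner.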

How the data were processed

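CircRNA signal was measured in liver of 9 mice on 1-colour arrays, 3 for each of the N, I/R and IPO groups, which were taken from the labels. The authors deposited scanner output made with version 11.0.1.1 of Agilent Feature Extraction, per the file headers and the submitters' processing notes. For each spot it gives a background-corrected intensity, not normalized between arrays, the median raw intensity, the local background and quality flags. The deposited flags are scores of 0 or 1 for outlier, saturated and well-above-background spots.

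In R 4.3.3, log2 intensities of the 15176 non-control spots were quantile normalized with limma 3.58.1, outlier spots set to missing. This affected 1 spot of a member, ASCRP4008791 on N3. Shares of signal used the deposited linear intensity of the 14236 circRNA probes. A model of all 3 groups (lmFit, eBayes) was fitted to those 12813 circRNA probes that were well above background on 3 or more arrays, as quantile normalization and limma are named in the methods, which give no such filter. A call needed a difference of 2.0-fold or more with a p below 0.05. A second call rule was an adjusted p (Benjamini-Hochberg over all probes tested) below 0.05. No p-value between N and another group is used. The procedure was tested on simulated data in which a probe had the same spread in all groups. That test does not cover the wider spread of the I/R arrays. The number of arrays limits the precision, and with 3 against 3 an exact permutation p cannot fall below 0.1.

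The members and lists were chosen with earlier results of these data known. Named are the 10 brightest members, 3 probes on each side of the limit, the 6 largest increases and the 6 largest decreases between IPO and I/R, the 4 members with the smallest range and the 4 with the largest SD in N. The increases and decreases were taken among members called at both thresholds whose values did not overlap and whose brighter group was well above background throughout. Alternatives were scaling by the 75th percentile, normexp background correction with an offset of 50, raw signal, outlier spots kept, 100 or 1000 members, other filters on dim probes, limma on the I/R and IPO arrays alone, Student's t-test, which the methods name for data other than the arrays, array weights, the replicate number or the scan as a block, scan 1 alone, and each array left out in turn. Scaling by the total circRNA signal was added after the data were seen. Within scan 1, and with the scan as a block, IR3 alone stands for I/R, so only the size of a difference is given. Tallies and ranges over the alternatives include these fits. For single probes they also include the lists of 100 and 1000 members, which leave the values of a probe as in the main analysis. The raw and normexp values were made from the median raw intensity in place of the mean. Host gene lists, cell type markers and probe sequences were not used here, since no table used here pairs them with the probe numbers.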

Additional observations from a re-analysis of the deposited data

How the results depend on the processing

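With 3 arrays per group and 2 dim I/R arrays, the members' share and the counts of calls moved more than the direction of single probes. Under 75th percentile scaling the IPO minus I/R difference in the members' median turned to -0.35, with 76 members lower in IPO by fold and p and 40 by adjusted p (13.3%, with 4.3% of all probes). The shares in N, I/R and IPO were 55.0%, 48.5% and 54.1% after normexp correction and 62.8%, 54.6% and 60.6% with the raw signal. Their IPO minus I/R difference was then 5.67 points (exact permutation p = 0.3) and 5.99 points (exact permutation p = 0.1), and 28 and 25 members were lower by adjusted p (9.33% and 8.33%, with 3.96% and 4.13% of all probes). On quantile-normalized linear signal the IPO share was 67.1% and the difference 2.71 points (exact permutation p = 0.1). Within scan 1 the I/R share, of IR3 alone, was 59.7%, and the difference was 4.81 points. By construction the counts followed the size of the list. With 100 members the shares were 57.7%, 55.3% and 54.6%, and 75 and 88 stayed in the I/R and IPO lists. By fold and p 19 were higher and 9 lower (19% and 9%, with 12.4% and 8.94% of all probes). By adjusted p 14 were higher and 6 lower (14% and 6%, with 4.96% and 3.07%). With 1000 members the shares were 78.8%, 78.9% and 77.2%, and 718 and 875 stayed in the lists. By fold and p 260 were higher and 72 lower (26% and 7.2%, with 12.4% and 8.94% of all probes). By adjusted p 146 were higher and 39 lower (14.6% and 3.9%, with 4.96% and 3.07%).

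Among the tests, limma on I/R and IPO alone left 3 members lower by adjusted p and 42 higher (1% and 14%, with 0.172% and 1.64% of all probes). Student's t-test, named in the methods for data other than the arrays, left 0 higher and 0 lower after adjustment, with 0% of all probes. There limma called 53 and 16 (17.7% and 5.33%, with 4.96% and 3.07% of all probes). Array weights, lowest for IR3 at 0.105, gave 40 lower by fold and p (13.3%, with 14.9% of all probes), and 80 higher and 40 lower by adjusted p (26.7% and 13.3%, with 19.1% and 16.2%). The scan as a block gave 48 lower by fold and p (16% of members, 15.3% of all probes) and 31 by adjusted p (10.3%, with 7.26%). The fit with a replicate block called 35 higher and 5 lower by adjusted p (11.7% and 1.67%, with 2.22% and 0.554% of all probes). Over all probes, deviations of same-numbered arrays correlated between -0.47 and 0.18, above 0.1 in 2 of 9 pairs. Over the members they ran from -0.62 for IR3 and IPO3 to 0.60 for N1 and IPO1. The numbers were not taken to pair the mice. Leaving out 1 array at a time gave shares of 66.0% to 69.9% in N, 63.8% to 69.4% in I/R and 64.2% to 65.3% in IPO, a difference of -4.53 to 1.08 points, and a difference in the median of 0.15 to 0.28. Between 200 and 217 members stayed in the I/R list and 246 to 269 in the IPO list. By fold and p 70 to 104 were higher and 20 to 39 lower, and by adjusted p 26 to 84 and 1 to 43. Over all probes the shares by fold and p ran from 9.72% to 19.9% higher and 7.04% to 15.1% lower, both highest without IR3. By adjusted p they ran from 1.35% to 18.5% higher and 0.204% to 18.1% lower, again highest without IR3.

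Some named probes changed sign between IPO and I/R, and none of them was called in the main analysis. ASCRP4011502 was at -0.10 and ASCRP4006649 at -0.62 under 75th percentile scaling. Under scaling by the total signal ASCRP4013042 was at 0.033 and ASCRP4006649 at -0.22. ASCRP4007838 was at 0.036 to -0.30 when an I/R array was left out, 0.11 within scan 1 and 0.10 with the scan as a block. ASCRP4006342 was at 0.00015 and 0.00020, and ASCRP4006649 at -0.029 and -0.050, within scan 1 and with the scan as a block. The cause of these changes was not tested.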
